A study of Mus musculus with 40 samples.

Results

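The cells described here are 14 single spermatocytes named Metaphase I, divided by their own level of Aurka, the gene of Aurora kinase A. They were chosen by measured values, the levels of Aurka, Acrv1 and Clu in each cell. They come from 20 Metaphase I cells in a series of 40 single mouse testis cells, the other 20 of which are named Pachytene. A cell's level is given in CPM, its count for a gene per 1000000 of its total count. Cells with at least 100 CPM of Acrv1, an acrosome gene of spermatids, or at least 1000 CPM of Clu, an abundant Sertoli cell gene, were left out. That removed 4 cells for Acrv1 (replicates 3, 7, 16 and 17) and 1 cell for Clu (replicate 19). Of the remaining 15 cells, 9 had at least 400 CPM of Aurka and form the Aurka-high side, 5 had less than 300 CPM and form the Aurka-low side, and replicate 10 lay between and was left out. The question behind the division is whether every cell of the treated group carried the transcripts of late prophase. Aurka made the division, so its own difference is not a finding.

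All 40 cells are from C57BL/6J mice aged 6 to 8 weeks, with no allele or transgene named. The labels' protocols describe spermatocytes enriched by elutriation, a sorting of cells by sedimentation, and okadaic acid at 4 µM for 5 h to bring them to metaphase I. Okadaic acid is an inhibitor of protein phosphatases of the PP1 and PP2A kinds. That protocol text stands on every library, and the Metaphase I cells were taken as treated from their names alone. The Aurka-high and Aurka-low cells therefore share strain, age range, drug, dose and time in culture as far as the labels go. Clu ran with replicate number, at 18.6 CPM or more in replicates 13 to 20 and at most 2.15 CPM in replicates 1 to 12. Replicates 13, 14, 15 and 18 of the Aurka-low side and only replicate 20 of the Aurka-high side lie in the former run. The labels do not say what the numbers stand for, and any part of this run in the differences cannot be told apart from the division by Aurka. The labels name no animal or culture, so how many mice the cells came from is not known, and the cells of both sides were taken as 1 sample. No test was made and no p-value is given.

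In the first meiotic prophase, homologous chromosomes synapse along the synaptonemal complex during zygotene and pachytene, exchange DNA at crossovers, and come apart in diplotene except at those crossovers. At the end of prophase, cyclin-dependent kinase 1 with its B cyclins, the polo-like kinase Plk1 and the Aurora kinases bring about chromosome condensation and spindle assembly. Male mouse germ cells transcribe much of what they will need as spermatids already in mid to late pachytene. Okadaic acid forces chromosomes of cultured pachytene spermatocytes to condense, which is why it is used to obtain metaphase I figures.

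The 9 Aurka-high cells held 282915 to 1391126 counts, median 495246, and the 5 Aurka-low cells held 336147 to 1497037, median 1020092. Genes with a count numbered 9103 to 11774 in Aurka-high cells and 10368 to 11218 in Aurka-low cells. Mitochondrial genes took 0.499% to 1.87% of counts on the Aurka-high side and 1.84% to 11.2% on the Aurka-low side. Replicate 18, an Aurka-low cell, stood apart with the highest mitochondrial share and the lowest share of ribosomal protein genes, 1.91%. Without it the Aurka-low mitochondrial share was 1.84% to 3.67%, and the ribosomal protein share was 6.49% to 7.26% against 3.72% to 4.84% in Aurka-high cells. Gene counts without replicate 18, with cells thinned to 1 depth and with mitochondrial and ribosomal protein genes out of the totals are given below. How much of the gene differences depth or these shares make up was not tested. Of the 90 genes named by rule, replicate 18 alone moved the summed fold of 8 by more than 1.5 times and turned the sign of 0, and values without it stand beside those 8. Genes of the X chromosome, which is silenced in pachytene, took 0.0265% to 0.0668% of counts in Aurka-high cells and 0.0392% to 0.0735% in Aurka-low cells, so both sides were low in X-linked transcripts.

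Aurka stood at 426 CPM in the lowest Aurka-high cell, 712 CPM in the median cell and 808 CPM in the highest. On the Aurka-low side it was 171 CPM in replicate 1, 176 in replicate 13, 160 in replicate 14, 149 in replicate 15 and 229 in replicate 18, an order kept for all lists of Aurka-low values that follow. The nearest values to the limits were 426 CPM in replicate 4 just inside the Aurka-high side, 229 CPM in replicate 18 just inside the Aurka-low side, and 319 CPM in replicate 10 between them. The Aurka-low cells were not free of Aurka transcripts, and each had at least 77 counts of it.

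Several M-phase kinases and cyclins, Plk1, Ccnb1, Ccna1 and Aurkb among them, were far higher in the Aurka-high cells. Others were lower there, as the gene lists below show. Plk1, the polo-like kinase that acts at M-phase entry and in spindle assembly (chr7:122159439-122169873), was 66.9 CPM in the lowest Aurka-high cell, 248 CPM in the median cell and 347 CPM in the highest. In the 5 Aurka-low cells Plk1 was 8.30, 2.67, 0.980, 3.54 and 50.6 CPM. The sides did not overlap, and replicate 18 was the high cell among the Aurka-low ones. In counts summed over each side Plk1 was 30.6-fold higher, with a 95% interval of 21.8 to 44.4 that covers counting error alone. The log2 ratio of Plk1 was 4.75, or 5.49 without replicate 18. All intervals of folds given here are of this kind, and they are too narrow if a count is a read and not a molecule.

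Ccnb1, cyclin B1 and thus the partner that activates Cdk1 (chr13:100778650-100786570), was 22.7, 440 and 506 CPM in the lowest, median and highest Aurka-high cell. It was 4.15, 4.01, 3.92, 7.96 and 68.4 CPM in the Aurka-low cells. The sides overlapped for Ccnb1, because replicates 4 and 5 of the Aurka-high side had 22.7 and 44.8 CPM and replicate 18 of the Aurka-low side had more than both. The summed Ccnb1 fold was 35.8 (26.7 to 49.0), and its log2 ratio of 5.02 was 5.80 without replicate 18. Ccna1, the cyclin A of the male germ line that is required for the exit from meiotic prophase in male mice (chr3:55045469-55055501), was 265, 644 and 827 CPM in the lowest, median and highest Aurka-high cell. Its Aurka-low values were 21.8, 10.7, 31.4, 14.2 and 149 CPM, so every Aurka-high cell lay above every Aurka-low cell, and the fold was 20.8 (17.5 to 25.0). Aurkb, the Aurora kinase of the chromosomal passenger complex (chr11:69045647-69051664), was 53.0, 86.0 and 131 CPM on the Aurka-high side. Aurkb was 16.6, 0.668, 0, 0.885 and 2.98 CPM on the Aurka-low side, again without overlap, a 26.2-fold difference (16.6 to 43.8). The log2 ratio of Aurkb was 4.39, or 5.85 without replicate 1.

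**Figure D1:**
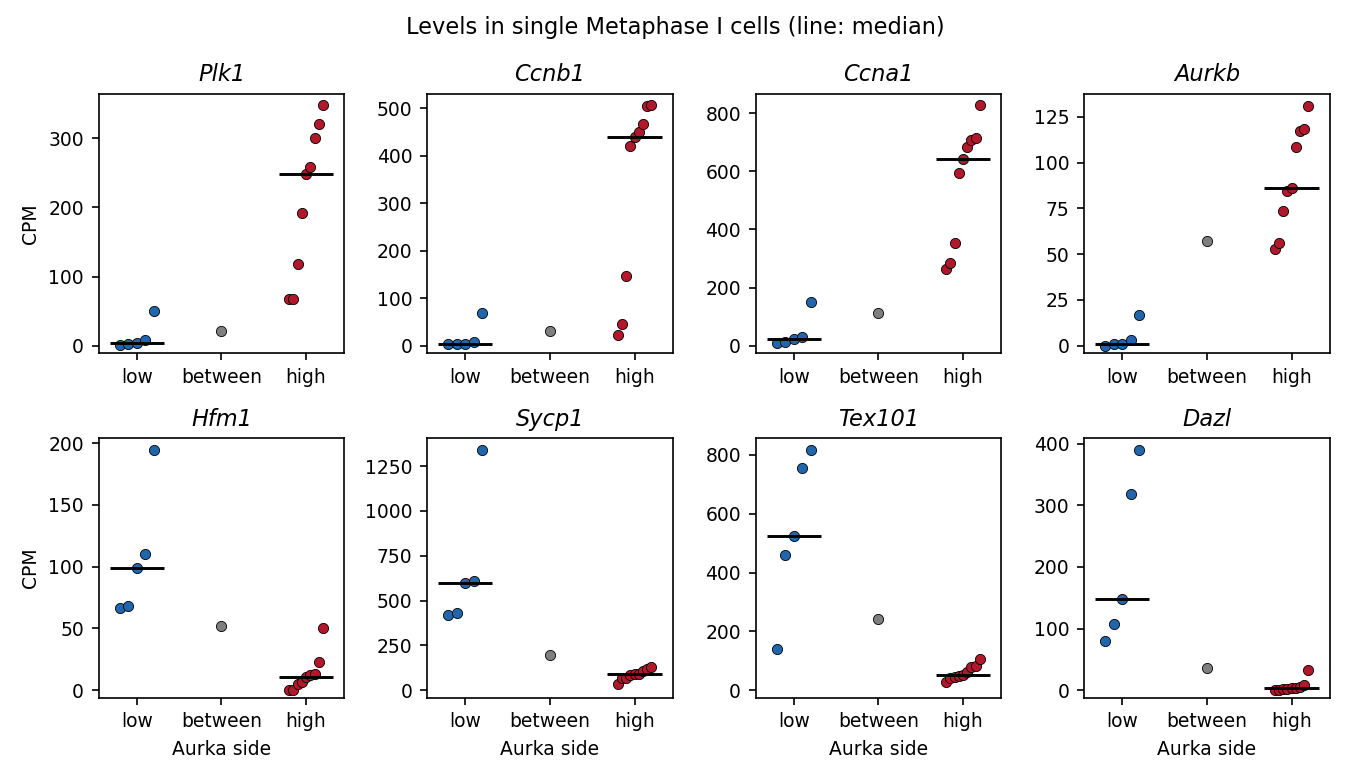
Levels of 8 genes in CPM (vertical axis, linear, a separate scale for each gene) in single Metaphase I cells on the Aurka-low side, between the sides and on the Aurka-high side. Each point is 1 cell and each line is the median of a side. Plk1, Ccnb1, Ccna1 and Aurkb were high in most Aurka-high cells, with 1 raised Aurka-low cell (replicate 18 for the first 3), and Hfm1, Sycp1, Tex101 and Dazl were higher in all 5 Aurka-low cells than in any Aurka-high cell.

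The sequence before the start of the genes that differed most is shown for a gene pair higher in the Aurka-high cells, Ccnb1 and Plk1, and for Casp8ap2, which was lower there, since genes of M phase and of DNA replication are known for short promoter motifs. The letters are from RefSeq on GRCm38.p6, written 5′ to 3′ on the strand of the gene. Of the 250 bases before the RefSeq start, the stretch outside all exons of the deposited table is printed, which is chr13:100786571-100786736 (minus strand) for Ccnb1, chr7:122159402-122159434 (plus strand) for Plk1 and chr4:32615220-32615450 (plus strand) for Casp8ap2. Capitals mark CCAAT, the E2F motif TTCCCGC and the CHR motif TTTGAA, each searched on both strands, so a match on the other strand reads ATTGG or GCGGGAA.
Ccnb1: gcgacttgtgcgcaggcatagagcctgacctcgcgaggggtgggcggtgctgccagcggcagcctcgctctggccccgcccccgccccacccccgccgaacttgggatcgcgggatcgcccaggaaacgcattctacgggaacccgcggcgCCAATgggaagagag
Plk1: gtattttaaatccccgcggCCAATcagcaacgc
Casp8ap2: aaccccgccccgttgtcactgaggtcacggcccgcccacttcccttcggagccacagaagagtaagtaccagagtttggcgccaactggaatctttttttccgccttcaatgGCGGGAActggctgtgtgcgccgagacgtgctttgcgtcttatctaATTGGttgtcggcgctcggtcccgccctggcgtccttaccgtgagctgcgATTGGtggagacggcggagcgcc

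Ccnb1 held CCAAT 99 and 67 bases before its start, the second within an exon of the table and not printed, and Plk1 held it 14 bases before. Casp8ap2 held CCAAT at 92 and 42 bases and the E2F motif at 138 bases before the start. Among the 12 highest and 12 lowest genes with a promoter sequence, only Casp8ap2 held the E2F motif and none held the CHR motif. Orc6, a replication gene among the lowest, held CCAAT alone. Msh4, a crossover gene described below that was lower in Aurka-high cells, held the CHR motif 138 bases before its start. Nme8, Peli2, Rgcc and Dnaic2 of the highest and Tnrc6a, Rpap3, Mphosph6 and Cep78 of the lowest held no searched motif. Such motifs are common. Of the 8112 measured genes with a promoter sequence, 37.2% held CCAAT, 11.1% the CHR motif and 7.10% the E2F motif in these 250 bases. The genes over 2-fold higher in Aurka-high cells with no overlap between the sides had 32.7%, 11.7% and 5.71% (385 with a sequence), and those over 2-fold lower with no overlap had 38.5%, 8.78% and 9.16% (262 with a sequence). Over all 27025 promoters the shares were 34.5%, 16.3% and 3.84%. A match is a string of letters and was not tested as a binding site.

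Over the whole transcriptome the division went with broad differences. A gene was called measured when its summed count over both sides reached 20, and called higher or lower when the ratio of summed CPM, with 1 CPM added to each side, passed 2-fold. Of 11148 measured genes, 2123 (19.0%) were higher and 2780 (24.9%) were lower in Aurka-high cells, and the median log2 ratio of all genes was −0.16. With no overlap between the sides were 656 genes higher (5.88%) and 347 lower (3.11%), and both over 2-fold and without overlap were 527 genes higher (4.73%) and 330 lower (2.96%). Without replicate 18 the counts over 2-fold were 2330 higher and 2480 lower. With each cell thinned to 282915 counts, 9013 genes were measured, 1619 of them higher and 2201 lower. With mitochondrial and ribosomal protein genes out of the totals, 2020 were higher and 2955 lower. These shares are the background for each gene list below.

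The 12 genes with the highest ratios of median level, by a rule of size given under the processing of the data, were Ccdc178, Ccnb1, Nme8, Peli2, Prss39, Rgcc, Plk1, Map4k1, Dnaic2, Ccna1, Rnf125 and Galntl6. Beside the M-phase genes already described, several belong to the later male germ cell. Prss39, a serine protease of the testis (chr1:34498410-34503063), was 198, 513 and 613 CPM in the lowest, median and highest Aurka-high cell, and 24.9, 10.0, 6.86, 11.5 and 89.3 CPM in the Aurka-low cells. The sides did not overlap, and the Prss39 fold was 27.8 (22.5 to 34.7).

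Nme8, a thioredoxin-domain protein of the sperm tail (chr13:19645078-19697794), was 111, 314 and 421 CPM on the Aurka-high side and 3.11, 1.34, 14.7, 1.77 and 128 CPM on the Aurka-low side. Dnaic2, an intermediate chain of the axonemal dynein that drives the flagellum (chr11:114727408-114757889), was 60.6, 162 and 303 CPM against 17.6, 0.668, 0, 1.77 and 128 CPM. For both genes replicate 18 alone overlapped the Aurka-high side, and the other 4 Aurka-low cells stayed below it. Their folds were 19.0 (14.8 to 24.8) for Nme8 and 12.6 (9.78 to 16.6) for Dnaic2. The log2 ratio of Nme8 was 4.15 with replicate 18 and 5.44 without it, and that of Dnaic2 was 3.56 and 4.92.

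Map4k1, a kinase of the MAP4K family (chr7:28982050-29003279), was 132, 283 and 448 CPM on the Aurka-high side, and 16.6, 4.01, 5.88, 6.19 and 256 CPM on the Aurka-low side. The log2 ratio of Map4k1 was 3.45 with replicate 18 and 5.02 without it, which moves the fold by over 1.5 times. Rgcc, a regulator of the cell cycle (chr14:79288756-79301645), was 20.0, 164 and 388 CPM against 8.30, 0.668, 0, 0 and 14.9 CPM, without overlap. Its spread within the Aurka-high side was wide, and the fold was 55.0 (32.6 to 101), with a log2 ratio of 5.35, or 5.97 without replicate 1.

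Peli2, an E3 ubiquitin ligase of the Pellino family (chr14:48120823-48281575), was 74.5, 218 and 350 CPM in Aurka-high cells and 1.04, 34.1, 0.980, 1.77 and 32.7 CPM in Aurka-low cells. Its sides were separate, with replicates 13 and 18 the high cells among the Aurka-low ones, and its log2 ratio was 3.75, or 5.18 without replicate 13. The coiled-coil gene Ccdc178 was 371, 592 and 778 CPM against 41.5, 0.668, 0, 3.54 and 98.2 CPM, without overlap and 35.3-fold higher (28.2 to 44.8). Its log2 ratio of 5.06 was 5.70 without replicate 18 and 5.73 without replicate 1. The RING ubiquitin ligase Rnf125 was 27.8, 147 and 219 CPM against 5.18, 1.34, 0, 0 and 5.95 CPM, also without overlap and 67.4-fold higher (35.3 to 148). Galntl6, a member of the family of enzymes that start O-linked glycans (chr8:57774052-58912640), overlapped between the sides. Replicate 6 of the Aurka-high side had 21.2 CPM of Galntl6 and replicate 18 of the Aurka-low side had 190 CPM. The log2 ratio of Galntl6 was 3.71, or 4.86 without replicate 18.

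The 12 genes with the lowest ratios were Tnrc6a, Tars, Dazl, Ttc38, Kcnk10, Casp8ap2, Orc6, Ccne2, Eef1e1, Rpap3, Mphosph6 and Cep78. Dazl, an RNA-binding protein of germ cells that promotes translation (chr17:50279395-50293636), was 0, 3.79 and 33.6 CPM in the lowest, median and highest Aurka-high cell. It was 148, 389, 319, 108 and 80.3 CPM in the Aurka-low cells. There was no overlap, and Dazl was 34.3-fold lower in Aurka-high cells (25.0 to 48.3). Its log2 ratio was −4.92, or −5.52 without replicate 5, the Aurka-high cell with the most Dazl.

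Tnrc6a, a scaffold of microRNA silencing (chr7:123123885-123195296), was 0, 0 and 3.74 CPM on the Aurka-high side, where replicate 5 had the 3.74 CPM. It was 27.0, 147, 130, 86.7 and 92.2 CPM on the Aurka-low side, with counts in all 5 cells. Casp8ap2, a protein of histone mRNA processing (chr4:32615451-32653265), was 0, 0 and 20.5 CPM against 27.0, 101, 75.5, 46.9 and 62.5 CPM. The sides were separate for both genes, with a Casp8ap2 fold of 28.9 (16.6 to 54.8). For Casp8ap2 the log2 ratio was −4.35, or −5.60 without replicate 5. Exons of Tnrc6a overlap Gm45846 on the same strand.

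A pair of the lowest genes act at the start of DNA replication. Ccne2, cyclin E2 (chr4:11191351-11204779), was 0, 2.53 and 22.4 CPM in Aurka-high cells and 57.0, 91.5, 148, 146 and 32.7 CPM in Aurka-low cells. Orc6, a subunit of the origin recognition complex (chr8:85299632-85308278), was 0, 2.17 and 10.1 CPM against 89.2, 142, 87.3, 36.3 and 35.7 CPM. Neither gene overlapped between the sides, and the folds were 22.0 (14.9 to 33.7) for Ccne2 and 22.9 (14.9 to 36.9) for Orc6. Exons of both genes overlap a gene on the other strand, Ints8 for Ccne2 and Vps35 for Orc6, and without a stated strand setting the partners cannot be told apart. The same holds for Plk1 with Gm44985, Ccna1 with 4931419H13Rik and Galntl6 with BC030500, and, among genes described further on, for Msh4 with Gm24395, Mcmdc2 with Snhg6, Ggn with Spred3 and Ovol2 with 1700108N11Rik. Exons of Peli2 overlap Gm6498 and those of Eif4g1 overlap Snord66 on the same strand.

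Tars, the threonyl-tRNA synthetase (chr15:11382301-11399665), was 0, 0 and 16.5 CPM in Aurka-high cells and 34.2, 168, 88.2, 91.1 and 53.6 CPM in Aurka-low cells. The highest Aurka-high value was that of replicate 20, and the log2 ratio of Tars was −4.22, or −6.11 without that cell. Eef1e1, a protein of the complex that holds several tRNA synthetases (chr13:38644207-38659058), was 0, 0 and 17.8 CPM against 74.7, 110, 57.8, 51.3 and 0 CPM. Replicate 18, with no Eef1e1 count, was the 1 Aurka-low cell among the Aurka-high values. Kcnk10, a potassium channel (chr12:98429437-98578310), was 0, 3.25 and 61.6 CPM in Aurka-high cells and 92.3, 118, 104, 111 and 1345 CPM in Aurka-low cells, with replicate 18 more than 10 times as high as any other. For Kcnk10 the log2 ratio was −3.81, or −2.99 without replicate 18 and −4.49 without replicate 5.

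Of the remaining low genes, Cep78, a centrosomal protein, was at most 8.84 CPM in Aurka-high cells and at least 44.6 CPM in Aurka-low cells. Rpap3, a cochaperone in the assembly of RNA polymerase, was at most 29.9 CPM against at least 32.7 CPM, a narrow gap. Ttc38, a tetratricopeptide repeat protein, and Mphosph6, a protein associated with the RNA exosome, overlapped between the sides. Replicate 6 of the Aurka-high side had 17.7 CPM of Ttc38 against 17.7 CPM in replicate 14 of the Aurka-low side, and replicate 18 had 2.98 CPM of Mphosph6 against up to 20.2 CPM in Aurka-high cells.

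**Figure D2:**
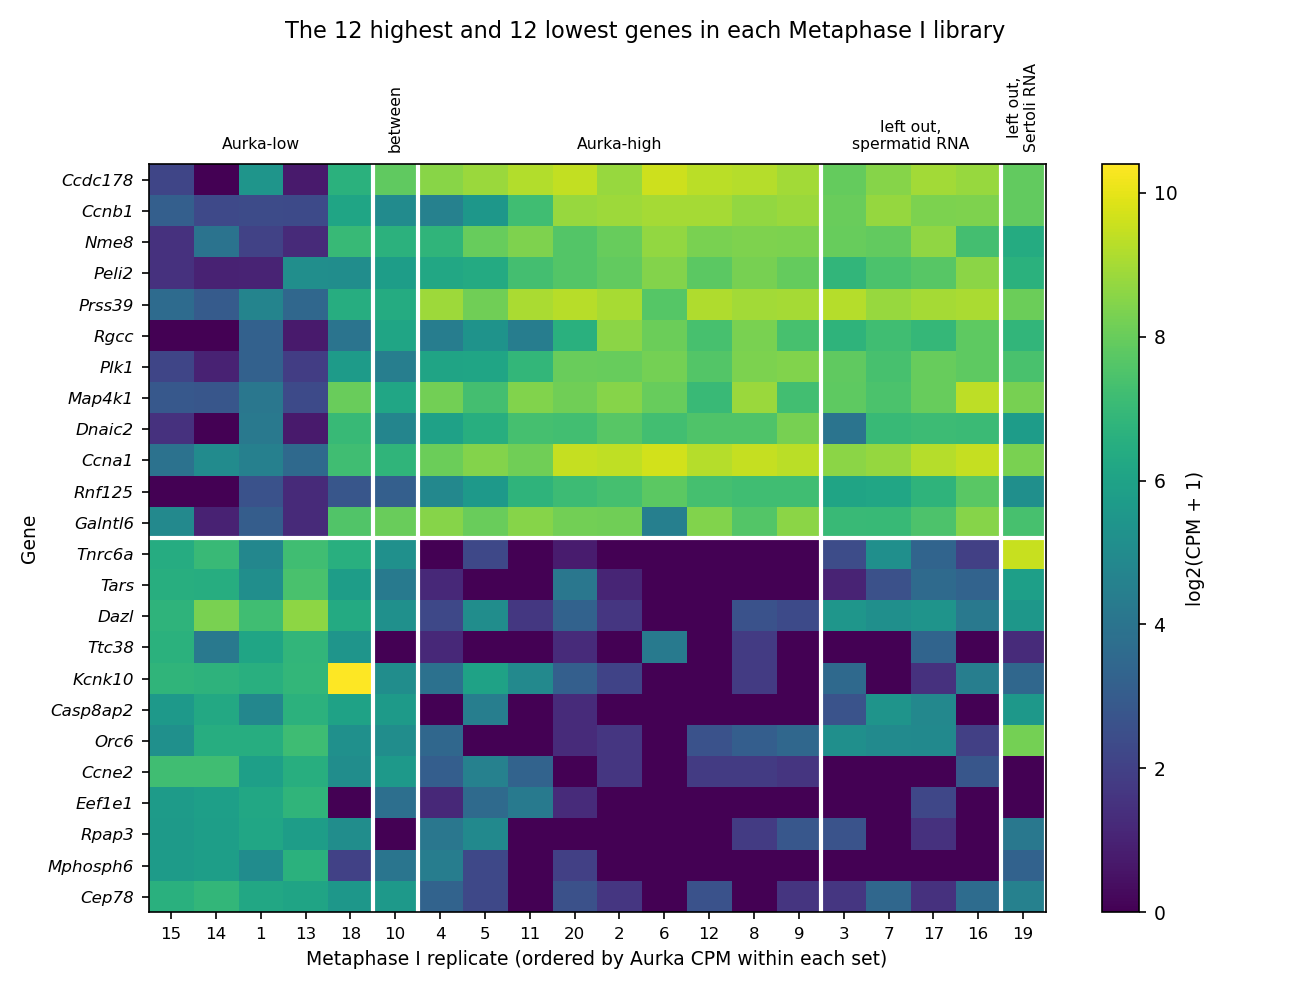
Level of the 12 highest and 12 lowest genes (rows) in all 20 Metaphase I libraries (columns, ordered by Aurka within each set), coloured by log2(CPM + 1). Aurka-low cells are dark for the upper genes and Aurka-high cells are dark for the lower ones, replicates 18, 10, 4 and 5 have middle values for several genes, and the 4 libraries left out for spermatid RNA resemble the Aurka-high columns for the upper genes.

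The lists of genes by function differed in unequal shares. Of the M-phase kinases and cyclins, 25 of 29 were measured, and 15 (against 19.0% of all genes) were higher and 5 (against 24.9%) lower in Aurka-high cells, with a median log2 ratio of 1.37. The 15 were Cdk1, Ccnb1, Ccna1, Plk1, Aurkb, Aurkc, Incenp, Birc5, Tpx2, Wee1, Wee2, Cdc25a, Cdc25c, Foxm1 and Haspin, which include both activators of Cdk1 and the inhibitory kinases Wee1 and Wee2. The 5 were Cks1b, Cks2, Pkmyt1, Mastl and Arpp19, of which Mastl and Arpp19 act in the inhibition of PP2A in M phase. Counts of all list members together came to 3659 to 5687 CPM in each Aurka-high cell and 1871 to 2998 CPM in each Aurka-low cell, with no overlap. With any single cell left out, 14 to 16 members were higher and 3 to 6 lower, the 3 being without replicate 2.

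The spindle checkpoint and the anaphase promoting complex had shares near those of all genes. Of 30 measured members of 31, 6 were higher and 5 lower, with a median of 0.08. Espl1, the separase that cleaves cohesin at anaphase (chr15:102296266-102324357), was 17.7, 63.3 and 139 CPM in Aurka-high cells and 21.8, 14.7, 6.86, 20.3 and 14.9 CPM in Aurka-low cells. The Espl1 values overlapped, since the lowest Aurka-high cell lay below 2 Aurka-low cells. Anapc4, a subunit of the anaphase promoting complex, was lower, at most 7.58 CPM in Aurka-high cells and 30.1 to 131 CPM in Aurka-low cells, and Anapc1 had a log2 ratio of −2.02.

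Condensins and topoisomerase II, which compact chromosomes, had 3 of 10 measured members higher (Smc2, Ncapd3 and Ncaph) and 0 lower, with a median of 0.11. The count lower was 1 without replicate 4 or 14. Ncaph was 7.47, 43.3 and 63.3 CPM in the lowest, median and highest Aurka-high cell and 0 to 9.35 CPM in Aurka-low cells. Smc2 was 65.7, 165 and 354 CPM in Aurka-high cells and 18.7 to 158 CPM in Aurka-low cells. Both overlapped between the sides.

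Among 32 measured spindle motors and assembly factors of 34, 8 were higher and 6 lower, with a median of 0.18. Hmmr, a spindle microtubule protein (chr11:40701395-40733422), was 46.7, 111 and 237 CPM against 29.0, 6.01, 12.7, 10.6 and 29.8 CPM, without overlap and 8.29-fold higher (6.49 to 10.7). Kif18b, a kinesin that shortens microtubules, had a log2 ratio of 2.57 (3.21 without replicate 13), and Tubg1, γ-tubulin, one of −2.13.

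Centromere and kinetochore genes, 29 of 31 measured, had 3 higher (Cenpe, Cenpf and Spc25) and 11 lower, with a median of −0.68. Without replicate 18, 5 were higher and 11 lower. Cenpe, the kinetochore motor that brings chromosomes to the spindle equator (chr3:135212537-135273611), was 58.1, 217 and 470 CPM in Aurka-high cells and 69.5, 44.1, 74.5, 43.3 and 65.5 CPM in Aurka-low cells. The overlap came from the lowest Aurka-high value, that of replicate 4. Spc25, of the Ndc80 complex, was 15.2 to 151 CPM against 8.93 to 30.7 CPM, and Pmf1, of the Mis12 complex, had a log2 ratio of −2.10.

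Genes of the synaptonemal complex were lower in Aurka-high cells. All 9 were measured, 6 were lower (Sycp1, Sycp2, Syce2, Syce3, Tex12 and 4930447C04Rik, the locus of Six6os1) and 0 higher, with a median log2 ratio of −1.86, or −1.56 without replicate 18. Sycp1, the transverse filament that joins the paired axes (chr3:102818499-102936100), was 37.4, 90.0 and 127 CPM in the lowest, median and highest Aurka-high cell. In Aurka-low cells Sycp1 was 432, 1341, 611, 599 and 420 CPM, so each had more than 3 times the highest Aurka-high value, and the fold was 9.80 (8.89 to 10.8). Tex12, of the central element, was 0, 7.47 and 40.4 CPM against 94.4, 194, 187, 80.5 and 35.7 CPM, with overlap through replicate 18. The list summed to 1498 to 1871 CPM in Aurka-high cells and 2687 to 6459 CPM in Aurka-low cells, or up to 4547 CPM without replicate 18.

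Crossover and recombination genes, 26 of 34 measured, had 13 lower and 4 higher members, with a median of −1.02. Hfm1, the helicase needed for crossovers (chr5:106840192-106926321), was 0, 10.6 and 50.4 CPM in Aurka-high cells and 66.4, 194, 99.0, 111 and 68.4 CPM in Aurka-low cells. The sides did not overlap, and Hfm1 was 9.73-fold lower (7.60 to 12.6). Msh4, which stabilises crossover intermediates (chr3:153857149-153906138), was at most 8.87 CPM in Aurka-high cells and 10.4, 78.2, 38.2, 11.5 and 0 CPM in Aurka-low cells. Replicate 18, with no count of Msh4, made the sides overlap, and the Msh4 fold was 10.8 (6.70 to 18.3). Its log2 ratio was −3.09, or −2.12 without replicate 13, the cell with the most Msh4.

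Ccnb1ip1, the crossover factor HEI10, was at most 3.54 CPM in Aurka-high cells and 17.6, 58.8, 23.5, 20.3 and 0 CPM in Aurka-low cells, and its exons overlap Rpph1 on the same strand. Mcmdc2, which acts in strand invasion, had 1 count in all Aurka-high cells together and 84 in the Aurka-low cells. The 4 higher members were 4930432K21Rik (the locus of Brme1), Meiob, Rpa1 and Prr19. As a sum the list did not separate the sides, with 1166 to 1671 CPM in Aurka-high cells and 1232 to 1795 CPM in Aurka-low cells.

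HORMA proteins and break formation genes, 9 of 13 measured, had 4 lower (Ankrd31, Hormad1, Trip13 and Zcwpw1) and 0 higher. The median was −0.87, or −0.49 without replicate 18. Hormad1, an axis protein removed on synapsis (chr3:95559677-95587671), was 84.8, 153 and 193 CPM in Aurka-high cells and 296, 609, 314, 441 and 250 CPM in Aurka-low cells. It did not overlap, with a fold of 2.79 (2.57 to 3.02). Trip13, the ATPase that removes Hormad1 from axes, was 0 to 17.8 CPM against 0 to 38.7 CPM and overlapped. Its log2 ratio of −1.48 was −0.50 without replicate 13, which is no longer over 2-fold.

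Factors of sex chromosome inactivation, 15 of 19 measured, had 9 lower (H2ax, Mdc1, Atr, Atrip, Topbp1, Rnf8, Setdb1, Cbx1 and Hira) and 2 higher, with a median of −1.16. The count higher was 1 without replicate 9 or 13. Topbp1, an activator of the kinase ATR on the XY axes (chr9:103305215-103350428), was 5.60, 12.1 and 31.1 CPM against 55.0, 102, 68.6, 60.1 and 205 CPM. Cbx1, a heterochromatin protein (chr11:96789127-96808640), was 24.7, 46.6 and 70.9 CPM against 136, 187, 117, 188 and 378 CPM. Neither overlapped, and replicate 18 was the highest cell for both. The list summed to 1029 to 1371 CPM in Aurka-high cells and 1554 to 3017 CPM in Aurka-low cells.

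Genes of the piRNA pathway, which silences transposons in germ cells, were 21 of 23 measured, with 13 lower and 1 higher (Tdrd7) and a median of −1.06. The count higher was 2 without replicate 15. Tdrd1, a Tudor protein that binds Piwi proteins (chr19:56826209-56870012), was 34.7, 61.1 and 102 CPM in Aurka-high cells and 242, 532, 317, 328 and 434 CPM in Aurka-low cells. Every Aurka-low cell was above every Aurka-high cell, and the fold was 5.55 (4.97 to 6.21). Tdrkh, a mitochondrial partner of Piwi proteins, was 12.1 to 59.8 CPM against 51.8 to 271 CPM, a slight overlap, and its exons overlap Oaz3 on the other strand.

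Histone variants of meiosis, 10 of 13 measured, had 6 lower and 0 higher, with a median of −1.14. H3f3b, which encodes histone H3.3 (chr11:116021912-116027962), was 300, 380 and 613 CPM in Aurka-high cells and 1531, 2612, 2012, 1508 and 306 CPM in Aurka-low cells. Here replicate 18 lay with the Aurka-high cells, and the other 4 Aurka-low cells were more than 2 times the highest of them. The testis-specific H2ac1 and H2bc1 had log2 ratios of −3.02 and −2.38.

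Of 5 measured genes of meiotic entry and early prophase, of 12 listed, 3 were lower and 1 higher, with a median of −1.11. Without replicate 13, 0 were higher. Tex101, a surface protein of germ cells (chr7:24668007-24676675), was 28.3, 53.2 and 105 CPM in Aurka-high cells and 523, 818, 756, 460 and 140 CPM in Aurka-low cells. It had no overlap, and a fold of 9.32 (8.37 to 10.4). Dmrtb1, a transcription factor at the switch from mitosis to meiosis (chr4:107676290-107684230), went the other way at 1306, 1531 and 1942 CPM against 1233, 195, 737, 746 and 259 CPM, without overlap but with a narrow gap at replicate 1.

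Cohesins and shugoshins, which hold sister chromatids together, were 15 of 17 measured, with 3 higher and 4 lower and a median of −0.01. Cdca5, the cohesin protector sororin, had a log2 ratio of 2.05 at 1.87, 24.4 and 62.6 CPM in the lowest, median and highest Aurka-high cell and 2.94 to 17.9 CPM in Aurka-low cells. Sgo1 and Esco2 were rare on both sides, at most 18.7 and 25.4 CPM in any cell.

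Regulators of meiotic transcription, 19 of 22 measured, had 7 higher (Tcfl5, Rfx8, Tbpl1, Ovol2, Zfp541, Taf4b and Gtf2a1l) and 0 lower, with a median of 0.38. The median was 0.68 without replicate 14, and 1 member was lower without replicate 1, 4 or 15. Ovol2, a zinc finger protein (chr2:144305175-144332146), was 240, 335 and 435 CPM in Aurka-high cells and 129, 106, 28.4, 13.3 and 77.4 CPM in Aurka-low cells. Rfx8, of the family of RFX transcription factors (chr1:39665301-39720997), was 64.4, 305 and 456 CPM against 42.5, 15.4, 24.5, 62.8 and 44.6 CPM. Neither overlapped, though replicate 4 of the Aurka-high side was only just above replicate 15 for Rfx8. Zfp541, a chromatin factor that acts in the later part of prophase, was 74.5 to 165 CPM against 10.0 to 65.3 CPM. The list summed to 4101 to 4828 CPM in Aurka-high cells and 2447 to 3216 CPM in Aurka-low cells, without overlap.

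Genes begun in pachytene and kept in spermatids, 33 of 35 measured, had 6 higher (Pgk2, Adam3, Zpbp2, Acrbp, Dnajb3 and Ggn) and 1 lower (Pdha2), with a median of 0.46. Without replicate 6, 12 or 13, 0 were lower. The share over 2-fold, 6 of 33, is close to the 19.0% of all genes, while 11 of the 33 were higher with no overlap between the sides, against 5.88% of all genes. Ggn, a germ cell protein of late spermatocytes and spermatids (chr7:29170210-29173976), was 328, 396 and 471 CPM in Aurka-high cells and 15.7 to 107 CPM in Aurka-low cells, an 8.55-fold difference (7.46 to 9.85). Pgk2, the phosphoglycerate kinase of the male germ line (chr17:40207015-40208640), was 185, 328 and 426 CPM against 107, 24.7, 32.4, 27.4 and 86.3 CPM. Zpbp2, an acrosomal protein (chr11:98551097-98558665), was 787, 1119 and 1280 CPM against 321, 172, 209, 313 and 298 CPM. All 3 were separate between the sides.

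Genes of round and elongating spermatids, 25 of 32 measured, had 6 higher and 3 lower, with a median of 0.33. The 6 were Hmgb4, Smcp, Tssk1, Spaca7, Gsg1 and Tsks, and the 3 were Prm1, Prm2 and Oaz3. Tssk1, whose exons overlap Dgcr2 on the other strand, had a log2 ratio of 2.17. The list summed to 3678.0 to 4372.5 CPM in Aurka-high cells and 1665.9 to 4225.4 CPM in Aurka-low cells. Without replicate 18 the higher count was 10 and the median 0.65, and without replicate 15 the lower count was 1. Prm1 and Prm2, the protamines that replace histones in the sperm head, were rare in both sets of cells. Prm2 had 0 counts in the 9 Aurka-high cells and 0 to 21.2 CPM in Aurka-low cells, and Prm1 was at most 3.74 CPM in Aurka-high and 19.6 CPM in Aurka-low cells.

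Germ cell regulators of translation and RNA, 24 of 29 measured, had 3 higher (Cpeb4, Msi2 and Btg4) and 5 lower (Dazl, Eif4g1, Lsm14a, Cnot6l and Tob1), with a median of −0.14 that was 0.08 without replicate 13. Msi2, the RNA-binding protein Musashi-2 (chr11:88339382-88718513), was 38.9, 90.9 and 177 CPM in Aurka-high cells and 5.18, 1.34, 1.96, 0 and 2.98 CPM in Aurka-low cells. It was 49.2-fold higher without overlap (26.6 to 103). Eif4g1, the scaffold of cap-dependent initiation, was at most 8.84 CPM against 12.4, 24.7, 52.0, 15.9 and 134 CPM and also did not overlap.

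Subunits of the phosphatases that okadaic acid inhibits, 19 of 23 measured, had 4 higher (Ppp2cb, Ppp2r1b, Ppp2r2d and Ppp2r5c) and 5 lower (Ppp1cb, Ppp2ca, Ppp2r1a, Ppp2r5a and Ppp5c), with a median of 0.24. The PP2A catalytic genes thus differed in direction, with Ppp2cb higher and Ppp2ca lower, as did the scaffold genes Ppp2r1b and Ppp2r1a. Ppp2r2d, the regulatory subunit B55δ that holds back M phase (chr7:138846079-138883057), was 63.1, 129 and 157 CPM in Aurka-high cells and 7.26, 12.0, 15.7, 26.5 and 17.9 CPM in Aurka-low cells. Ppp2ca, a catalytic subunit of PP2A (chr11:52098681-52127778), was 0, 1.87 and 9.76 CPM against 11.4, 19.4, 15.7, 18.6 and 14.9 CPM. Both were separate between the sides. The exons of Ppp2r2d overlap Mapk1ip1 on the other strand, and those of Ppp2ca overlap Mir3061 on the same strand.

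Heat shock and stress genes, 15 of 23 measured, had 2 higher (Hspa5 and Bag3) and 6 lower, with a median of −0.53. Without replicate 2, 1 was higher. Atf4, the transcription factor of the integrated stress response (chr15:80255184-80257541), was 3.74, 24.2 and 35.4 CPM in Aurka-high cells and 193, 178, 305, 151 and 62.5 CPM in Aurka-low cells, an 8.41-fold difference without overlap (6.99 to 10.2). Xbp1, of the unfolded protein response, was 0 to 15.2 CPM against 0 to 46.7 CPM and overlapped. Of 23 immediate early genes 5 were measured, 3 of them higher (Jun, Ier5 and Dusp1), all at most 29.3 CPM in any cell of either side.

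**Figure D3:**
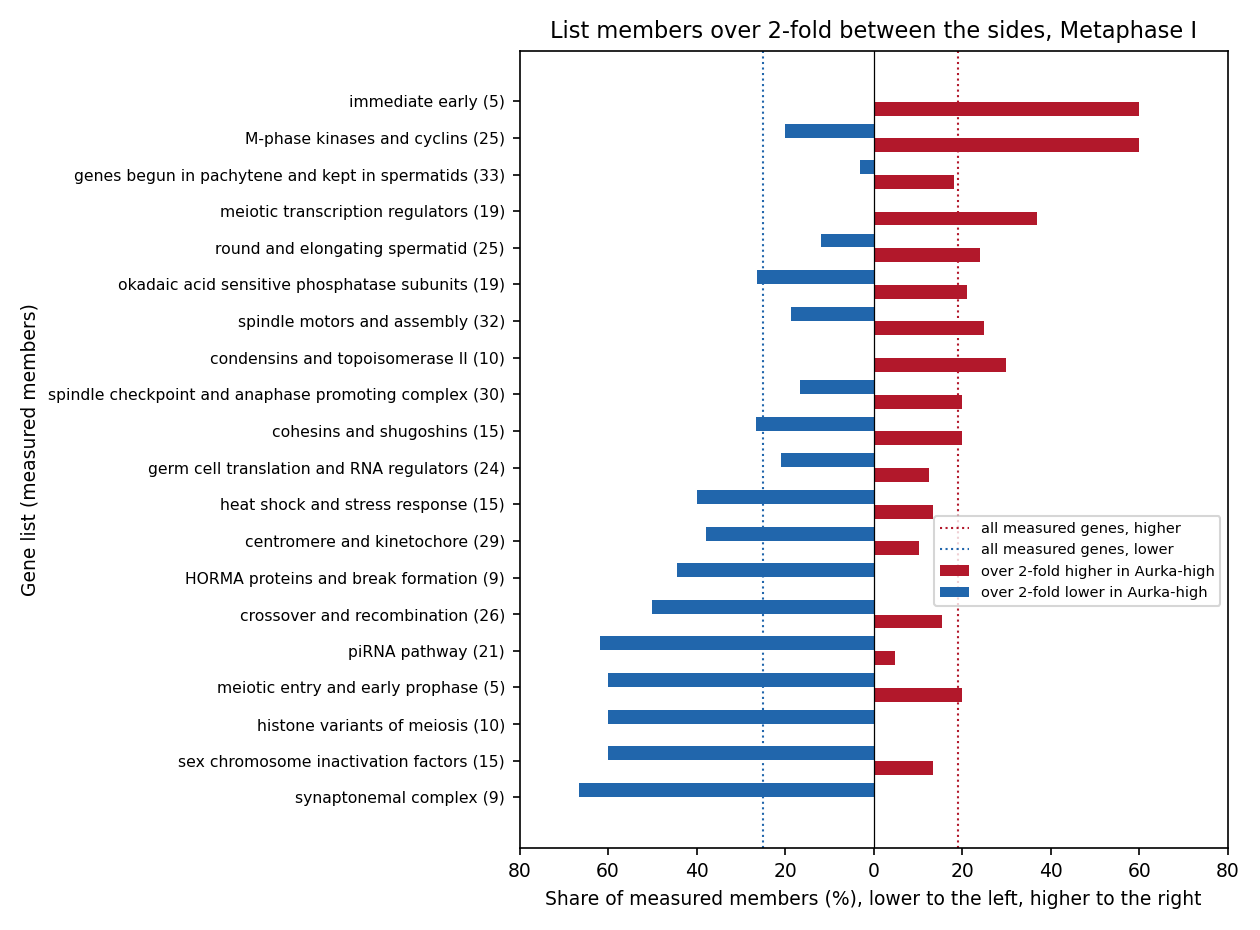
Share of the measured members of each gene list (rows, number measured in brackets) that were over 2-fold higher (bars to the right) or lower (bars to the left) in Aurka-high than in Aurka-low Metaphase I cells. Horizontal axis in percent, with dotted lines at the shares of all measured genes, 19.0% and 24.9%. M-phase kinases and cyclins had 15 of 25 to the right, and the synaptonemal complex had 6 of 9 to the left and 0 to the right.

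Markers of other testis cells were low on both sides but not equal. The 9 spermatid markers other than Acrv1 summed to 10.1 to 141 CPM in Aurka-high cells and 7.35 to 202 CPM in Aurka-low cells. Spermatogonia markers summed to 7.07 to 31.7 CPM against 27.4 to 89.5 CPM, with Kit, Dmrt1, Sohlh1 and Sall4 at 0 in all 14 cells. Sertoli markers without Clu summed to 0 to 18.0 CPM against 2.07 to 113 CPM, with replicate 18 the highest and Wt1, Gata4 and Rhox5 at 0. The 5 Leydig markers summed to 0 to 15.2 CPM against 4.01 to 47.6 CPM, all of it Star, which had counts in 7 of 9 Aurka-high and 5 of 5 Aurka-low cells, with Cyp11a1, Cyp17a1, Hsd3b1 and Insl3 at 0. The 8 markers of peritubular, endothelial and blood cells summed to 0 to 20.0 CPM against 0 to 5.88 CPM, with Myh11, Hbb-bs, Hba-a1 and Cd68 at 0 and Acta2 at 28 counts in Aurka-high and 1 in Aurka-low cells. The 9 spermatocyte markers summed to 25777 to 29332 CPM in Aurka-high cells and 16186 to 28740 CPM in Aurka-low cells, the low value being that of replicate 18. Both sides therefore carried spermatocyte transcripts in quantity, and the part of the other markers in the gene results was not tested.

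The Pachytene cells gave a scale for the Metaphase I cells from genes chosen in other cells. The choice used the same Aurka limits, so the scale holds genes that went with Aurka in Pachytene cells. Its separation of sides made by Aurka is therefore not support independent of Aurka. By the same rule 9 of the 20 Pachytene cells were Aurka-high, 7 were Aurka-low, 0 lay between and 4 were left out for spermatid RNA. Between those Pachytene sides 205 genes were over 4-fold higher and 150 over 4-fold lower in Aurka-high cells, without Aurka, Acrv1 and Clu. The stage index of a cell is the mean log2(CPM + 1) of the 205 genes minus that of the 150 genes. The Aurka-high Pachytene cells, from which the genes were taken, had indices of 1.29 to 3.49 and the Aurka-low ones of −4.47 to −1.19.

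Read in the Metaphase I cells, the index was 0.74 in the lowest Aurka-high cell, 2.78 in the median cell and 3.38 in the highest. It was −2.94 in replicate 1, −4.34 in replicate 13, −4.08 in replicate 14, −3.73 in replicate 15 and −2.04 in replicate 18. The sides did not overlap, the difference of their medians was 6.51 log2 units, and all 5 Aurka-low Metaphase I cells lay within the range of the Aurka-low Pachytene cells. Without the genes of the M-phase and crossover lists the difference was 6.47. That omission left 199 of the 205 and 146 of the 150 genes, so the difference could hardly move. Without any single cell the difference was 6.12 to 6.69.

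Within the Aurka-high side the cells were graded. Replicates 4 and 5, those with the lowest Aurka, had indices of 0.74 and 0.80, below all 9 Aurka-high Pachytene cells, and replicate 11 had 1.95. The other 6 cells had indices of 2.74 to 3.38. Replicate 10, between the sides with 319 CPM of Aurka, had an index of −1.23, close to the upper end of the Aurka-low Pachytene cells, and replicate 18, with the highest Aurka on its side, had the highest index there. The cells left out for spermatid RNA had indices of 1.81 to 2.56, and that with Sertoli RNA 0.45. Among these, replicate 3 had an index of 1.90 at an Aurka level of 126 CPM, below every Aurka-low cell.

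**Figure D4:**
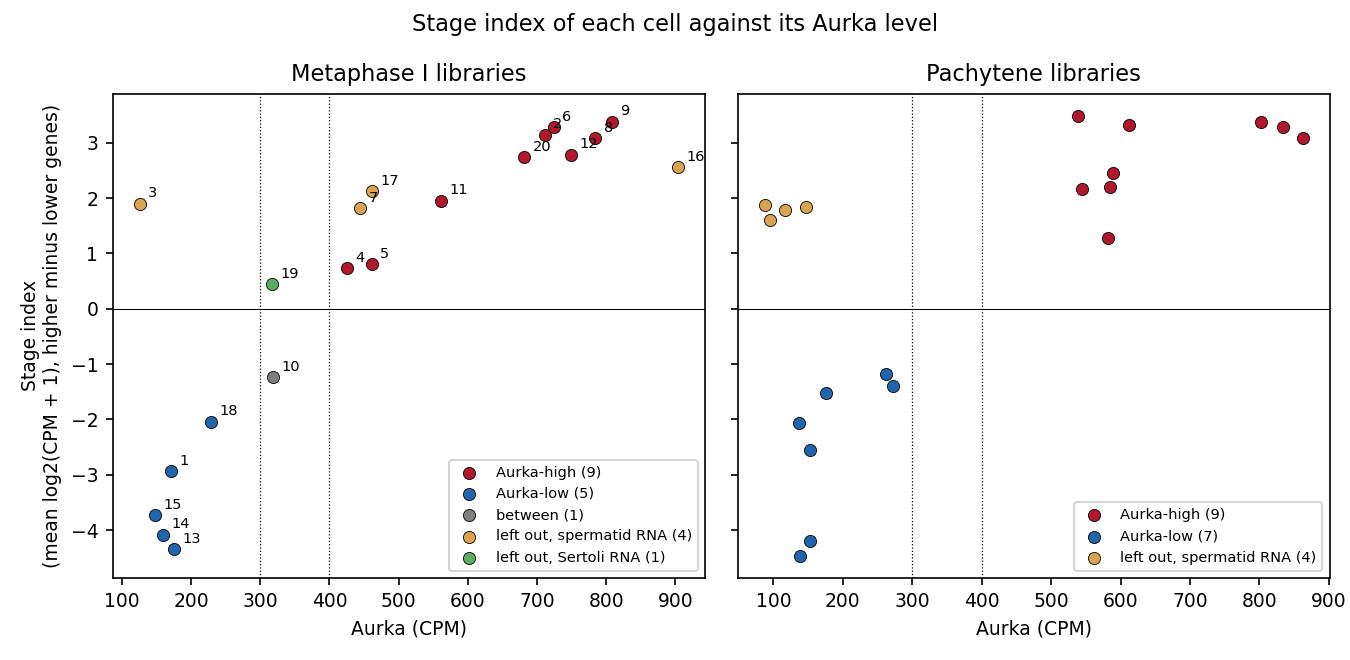
Stage index (vertical axis, mean log2(CPM + 1) of 205 genes minus that of 150 genes chosen in Pachytene cells) against Aurka in CPM (horizontal axis, linear) for each Metaphase I library (numbered by replicate) and each Pachytene library, coloured by side, with dotted lines at 300 and 400 CPM. The Aurka-low Metaphase I cells lie between −4.34 and −2.04 and the Aurka-high ones between 0.74 and 3.38, with replicates 4, 5 and 10 in the middle.

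Gene by gene, 192 of the 205 genes (93.7%) were over 2-fold higher on the Aurka-high Metaphase I side and 0 over 2-fold lower, with a median log2 ratio of 3.15. Of 149 measured genes among the 150, 143 (96%) were over 2-fold lower and 0 higher, with a median of −2.67. With no overlap between the Metaphase I sides were 70 of the 205 and 59 of the 149. Of all 11148 measured genes, 19.0% were over 2-fold higher and 24.9% lower, and 5.88% were higher and 3.11% lower with no overlap. The index genes are not a random draw from these, since they were taken for large differences and higher counts in Pachytene cells. The whole profile ran the same way as the index genes. Across 11044 genes, Spearman's rho with the summed Aurka-high Pachytene profile exceeded that with the Aurka-low profile in all 9 Aurka-high Metaphase I cells, by 0.017 in replicate 5 to 0.087 in replicate 2. In all 5 Aurka-low cells it was smaller, by 0.060 in replicate 18 to 0.121 in replicate 13. Genes are not independent replicates, and these values describe the cells.

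The same division of the Pachytene cells called fewer genes. It shares no cell with the Metaphase I division but uses the same Aurka limits. Calls shared by the groups are therefore not support independent of Aurka. Of 11668 measured genes, 1671 (14.3%) were higher and 1739 (14.9%) lower, and 139 (1.19%) were higher and 75 (0.643%) lower with no overlap between the sides, of which 102 (0.874%) and 51 (0.437%) were also over 2-fold. A lack of overlap is harder to reach with 7 Aurka-low Pachytene cells than with 5 Aurka-low Metaphase I cells. The no-overlap shares of the groups are therefore not directly comparable. Over the 10459 genes measured in both, 944 were higher in both, which is 45.8% of the 2060 higher in Metaphase I and 72.4% of the 1303 higher in Pachytene cells. Lower in both were 1186, which is 50.2% of 2363 and 75.3% of 1576. For comparison, 19.0% of all measured genes were higher and 24.9% lower in Metaphase I, against 14.3% and 14.9% in Pachytene cells. Of the genes higher in Metaphase I, 21 were lower in Pachytene cells, and of those lower, 41 were higher.

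The 12 highest and 12 lowest genes had the same sign in Pachytene cells. Plk1 had a log2 ratio of 4.75 in Metaphase I and 4.12 in Pachytene cells, Ccnb1 5.02 and 3.32, Ccna1 4.33 and 2.23, and Casp8ap2 −4.35 and −4.60. The gap between the groups was wider for Ccdc178, with 5.06 and 1.53, for Msi2, with 5.06 and 2.41, for Orc6, with −4.20 and −1.05, and for Msh4, with −3.09 and −0.58. Dmrtb1 had 1.25 in Metaphase I and 0.24 in Pachytene cells. Whether these gaps exceed the spread between animals was not tested, since the labels name none. With at least 100 counts in each group, 5 genes passed 2-fold in opposite directions, and they are named after their values were seen. They were Vmn1r181, with 1.20 in Metaphase I and −1.43 in Pachytene cells, Sdf2, with −1.73 and 1.05, Srsf2, with 1.10 and −1.03, Gm47709, with −1.65 and 1.14, and Oga, with −1.02 and 1.26. Vmn1r181 did not keep its opposite sign in medians over Pachytene cells, with a log2 ratio of 1.23.

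**Figure D5:**
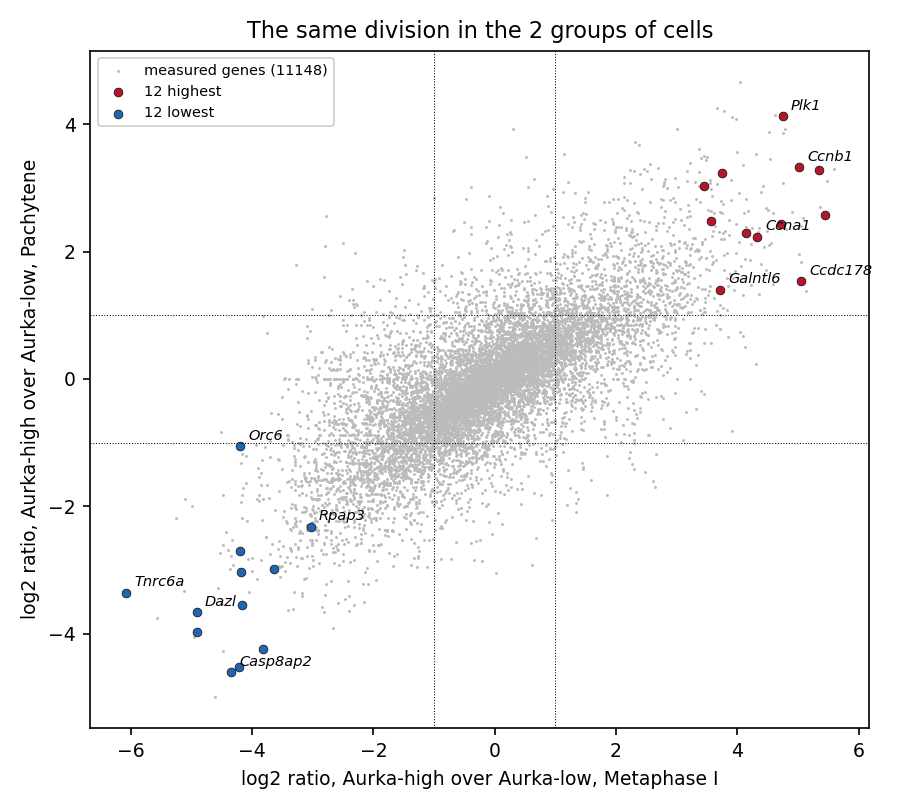
Log2 ratio of Aurka-high over Aurka-low cells in Metaphase I (horizontal axis) and in Pachytene (vertical axis) for each measured gene, with dotted lines at 2-fold. The 12 highest and 12 lowest genes of Metaphase I are coloured and lie in the upper right and lower left. On the vertical axis Ccdc178 and Orc6 lie nearer the middle than Plk1 and Casp8ap2.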

How the data were processed

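Transcripts of 40 single mouse testis cells were measured by a modified STRT-seq with barcoded oligo(dT) primers and sequencing of 3' ends, per the labels' protocols. The deposited counts are whole numbers for each of 55492 genes, made by the authors with UMI-tools, STAR and featureCounts on GRCm38, per the submitters' processing notes. Versions, strand setting, removal of PCR copies and gene annotation were not given in the sources used here. Each of the 40 columns of values carries the name of 1 library. Gene positions are those of the table.

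For each side the counts of its cells were added and divided by the summed total to give CPM. Log2 ratios have 1 CPM added to each side, and genes with a summed count under 20 were left out. Folds have exact conditional binomial intervals at 95%. CPM was not divided by gene length, so levels of different genes are not compared. Cells of a side were compared in pairs, and the chi-square per degree of freedom was at least 3.13 in 36 Aurka-high pairs and 9.20 in 10 Aurka-low pairs, so none was counted as a copy of another. No doublet caller was run.

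Genes of the stage index needed a summed count of 100 in Pachytene cells and a difference over 4-fold in the sum and over 2-fold in means and medians over cells. Named genes had a summed count of 100, detection in 75% or more of cells on the higher side and a 2-fold difference the same way in the sum, in means and in medians. Of 804 higher and 1174 lower genes of this kind, the 12 with the highest and the 12 with the lowest ratios of medians (5 CPM added) were taken, without mitochondrial, ribosomal protein and unnamed genes. Plk1, Ccnb1, Hfm1, Msh4 and up to 3 members of each of the gene lists with the largest ratios were added. Members called by list are named in full for some lists. The members, lists and rules were chosen with earlier results of these data known.

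Alternatives were equal weight and medians over cells, TMM (edgeR 4.0.16) and median-of-ratios scaling (DESeq2 1.42.0, R 4.3.3), totals without mitochondrial and ribosomal protein genes, other pseudocounts, count minimums and Aurka limits, thinning of each cell to 282915 counts, all 20 libraries, and omission of each cell. No test of either tool was used. The code was tested on simulated counts. Python 3.11.15, numpy 2.4.6, pandas 2.3.3, scipy 1.17.1 and matplotlib 3.10.9 were used.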

Additional observations from a re-analysis of the deposited data

Results flagged for a closer look

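In sets of 4 to 10 cells, the highest or lowest value was checked for a gap to its nearest neighbour beyond Dixon's 95% limit. This was done for 64 sets of values. The limit flags about 1 in 20 by chance only for normally distributed values. Levels here are skewed, and Tnrc6a, Tars, Ttc38 and Casp8ap2 had an Aurka-high median of 0 CPM. The number flagged is therefore not set against that rate. In all, 10 stood apart, and 5 of them belong to replicate 18 of the Aurka-low side. That cell had a mitochondrial share of 11.23%, a ribosomal protein share of 1.907%, 68.42 CPM of Ccnb1, 1344.6 CPM of Kcnk10 and 0 CPM of Eef1e1. On the Aurka-high side replicate 6 stood apart in its low Galntl6 (21.21 CPM) and its high Ttc38 (17.67 CPM). These are the genes of a glycosyltransferase family member and of a tetratricopeptide repeat protein. Replicate 5, 1 of the cells with the lowest stage index on that side, stood apart in Tnrc6a (3.735 CPM) and Casp8ap2 (20.54 CPM). Each of these genes had counts in 2 Aurka-high cells, and Tnrc6a had only 3 counts over the whole side. Replicate 20, the deepest Aurka-high cell, stood apart in Tars, the threonyl-tRNA synthetase, with 16.53 CPM, and 3 Aurka-high cells had Tars counts.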

How the results depend on the processing

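No paired analysis was possible because both sides lie within 1 group, so no replicate number is shared between them. A pseudocount of 10 CPM gave 1037 genes higher and 1242 lower in place of 2123 and 2780, and a count minimum of 100 gave 1273 and 1594, by construction fewer. The stage index difference of 6.51 was 4.80 with genes over 2-fold in Pachytene cells and 3.45 with 10 CPM added. With each cell left out in turn, 1977 to 2330 genes were higher, 2480 to 2872 lower, and the index difference was 6.12 to 6.69. The other scalings, cell weights, limits of Aurka and thinning kept both counts within 1.5 times. With no count minimum the median of the spermatogonia list was 0.24 and that of the immediate early list −0.52. With all 20 libraries divided by Aurka alone, 12 were Aurka-high, 6 were Aurka-low and the rest lay between. Of the cells left out for spermatid RNA, replicate 3 then joined the Aurka-low side and replicates 7, 16 and 17 the Aurka-high side. In that setting the immediate early median was −0.17, Tssk1 was −1.20 and Cst9 was 0.038. The cause was not tested. Depth limits genes at a few counts per cell, such as Msh4, Sgo1 and Prm2, for which a 0 in 1 cell of 282915 counts allows 3 counts.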
